A study of Mus musculus with 3 samples.

Results

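Binding sites of BACH2 and JunD around the gene Tnfaip3 were examined in peak lists from chromatin immunoprecipitation followed by sequencing (ChIP-seq) of mouse induced regulatory T (iTreg) cells. Members were all BACH2 and JunD peaks that overlap a window of 300 kb on chromosome 10, from 18700000 to 19000000 in the mm9 build, by at least 1 bp. The window held 23 of 9133 BACH2 peaks and 10 of 5237 JunD peaks, or 33 of 14370 peaks in all. The locus was chosen by its BACH2 values, because one of the largest −log10 q-values of the list had been seen there. The strength and crowding of its peaks are therefore a description, with no test.

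The cells were CD4+ T cells sorted from the spleens of C57BL/6 animals of wild-type genotype at 8 to 12 weeks of age, and cultured for 4 days on antibodies against CD3ε and CD28 with TGF-β. Their regulatory state is thus one induced in culture. The labels give 3 libraries, 1 each for BACH2, JunD and the input chromatin, all from wild-type animals. The input was not analysed here. No difference between the factors can be set against replicate error, the lists carry no expression values by which the cell type could be checked, and no read counts come with either list, so depth is unknown.

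Tnfaip3 encodes A20, a ubiquitin-editing enzyme that restrains NF-κB signalling downstream of tumour necrosis factor, Toll-like and antigen receptors. Its own transcription is switched on by NF-κB, which makes it a classic negative feedback gene in lymphocytes. BACH2 is a basic leucine zipper protein that represses transcription and is known for limiting effector programmes in T cells. JunD is a basic leucine zipper subunit of AP-1, the factor that carries antigen receptor signals to many T cell genes, and both proteins bind related DNA elements built around the AP-1 sequence.

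The rule places Tnfaip3 at about 18.72 to 18.736 Mb of chromosome 10. RefSeq gives the gene on the minus strand, so its promoter is at the higher coordinate, and positions beyond 18.736 Mb are upstream. Distances below run from 18.736 Mb to the summit of a BACH2 peak or the centre of a JunD peak, and since that bound is approximate they are approximate as well. In the RefSeq gene order of GRCm38.p6, the next protein-coding genes are Perp on the downstream side and Olig3, followed by Ifngr1, on the upstream side. Peaks are named here by position alone, since no mm9 annotation was used.

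The promoter of Tnfaip3 is shown because the only peak of either factor on the gene lay at that end, and the peak was a JunD peak. The sequence is RefSeq's for the first of 2 annotated starts, and runs 5′ to 3′ over the 250 bases before the start (GRCm38.p6, chr10:19015411-19015660, minus strand). Capitals mark matches to the motifs searched.

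Tnfaip3 promoter: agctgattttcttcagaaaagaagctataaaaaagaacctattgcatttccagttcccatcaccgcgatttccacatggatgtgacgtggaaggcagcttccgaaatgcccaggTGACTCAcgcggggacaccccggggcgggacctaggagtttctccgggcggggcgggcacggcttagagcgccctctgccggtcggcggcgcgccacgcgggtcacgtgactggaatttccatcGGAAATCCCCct

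The first run of capitals, 136 to 130 bases before the start, is a match to TGANTCA, the core AP-1 element. Of 32851 promoter windows of 250 bases in the same table, 6.75% held that motif on either strand. The second run, 12 to 3 bases before the start, matches an NF-κB-type element, GGG with any 2 bases and then TTTCC, on the other strand, and 1.41% of the windows held one. The longer element made of TGC and the AP-1 core TGANTCA, to which BACH and small Maf dimers are known to bind, was not matched (0.353% of windows held it). Nor was a second NF-κB-type element, GGGA with any 2 bases and then TTCC (1.21%). Matches to the longer element contain the AP-1 core, and the NF-κB-type elements can overlap each other. The window of the second annotated start held none of the 4 motifs. The promoter table and the peaks use different builds, so whether these letters lie under the JunD peak was not examined, and no peak sequence was read.

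At the gene itself there was 1 JunD peak and no BACH2 peak. The JunD peak ran from 18734998 to 18735668, with its centre 0.667 kb inside the promoter end of the interval given for Tnfaip3. Its score of 197.53, on the peak caller's own scale, ranked 558 of 5237, or 10.7% of the way down the JunD list. No BACH2 peak lay within 27.5 kb of it. A second JunD peak, from 18719196 to 18719568, lay just below the other end of the gene, outside the interval, and was among the weakest of its list (score 51.03, rank 5112, where the lowest score listed is 50).

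The nearest BACH2 peaks lay off the gene on both sides. The stretch without a BACH2 peak was 55.8 kb long, with 12.6 kb on the downstream side and 27.2 kb beyond the promoter end. Across the whole list, the median gap between neighbouring BACH2 peaks was 42.8 kb. That median counts each gap once, whereas long gaps cover more of the genome. The gap around a given gene thus tends to exceed it, and the 2 values are not alike. On a fixed grid of 8772 windows of 300 kb, 5754 held no BACH2 peak. Most stretches shorter than these windows therefore hold none either, so the lack of a BACH2 peak at the gene is no unusual feature. How often an interval as long as the gene lacks one was not counted. The only BACH2 peak below the gene, from 18707165 to 18707400, was weak (3.46-fold enriched, −log10 q 6.05, rank 7372 of 9133). The remaining 22 lay upstream, over 183.7 kb. A site that is not listed may still have carried signal below the caller's threshold.

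**Figure D1:**
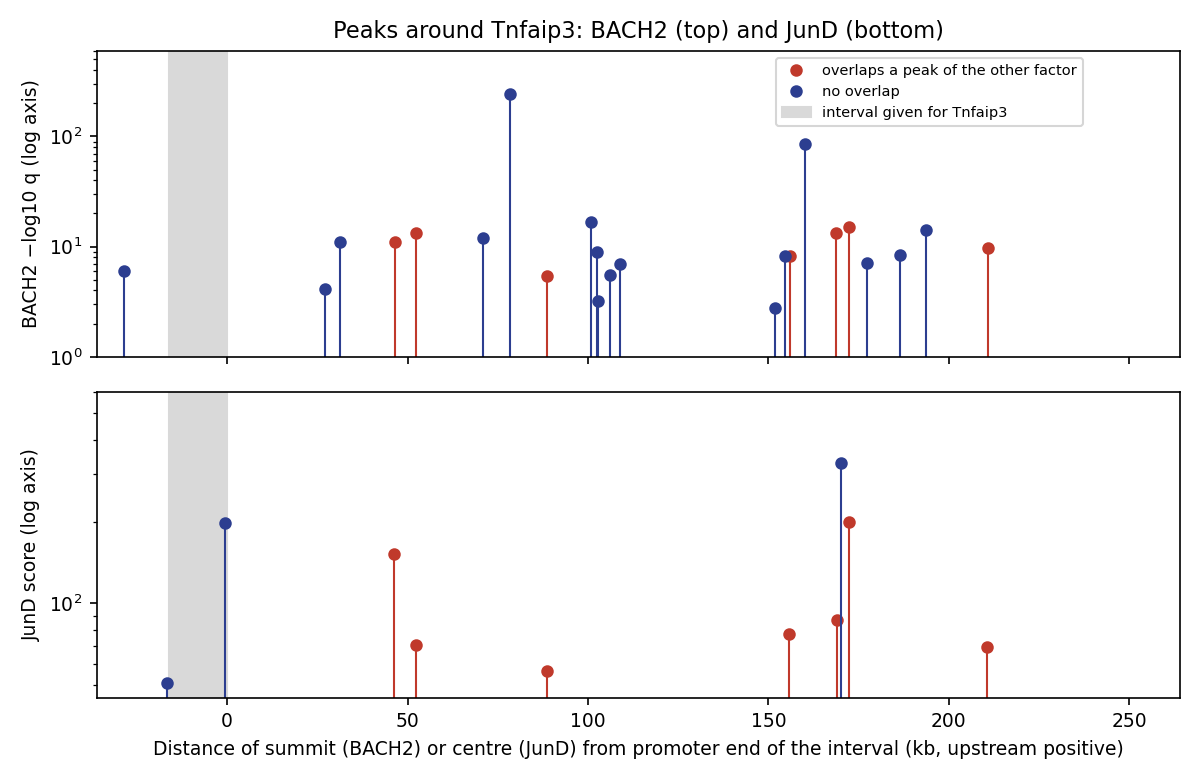
Peaks of BACH2 (top, −log10 q) and JunD (bottom, score) by distance in kb from the promoter end of the interval given for Tnfaip3, upstream positive, on log axes with different units; each stem is 1 peak and the grey band is the gene interval. No BACH2 stem falls in the band, JunD has 1 at its promoter end, and the tallest BACH2 stem at 78.4 kb stands where JunD has none.

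The strongest member was a BACH2 peak 78.4 kb upstream, from 18814068 to 18814790. It was 31.4-fold enriched, its −log10 q was 244.8, and it ranked 8 of 9133. No JunD peak overlapped it, the nearest being 9.49 kb away from edge to edge. That JunD neighbour was weak (rank 4452 of 5237). The next strongest BACH2 member, 160.2 kb upstream from 18896083 to 18896452, was enriched 23.2-fold with a −log10 q of 85.0 and ranked 364. It had no JunD peak either, and the nearest lay 4.02 kb away. By fold enrichment in place of −log10 q, these peaks ranked 29 and 104.

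The other 21 BACH2 members were far weaker, between 2.51-fold and 6.56-fold enriched and with −log10 q from 2.77 to 16.6. The best of them, 100.9 kb upstream, stood 36.5% of the way down the list (rank 3334). Over all 23 members the median fold was 4.59, against 5.75 in the whole list, and the median −log10 q was 9.03 against 11.8. Of the 23, 2 were in the strongest 10% of the list, which holds 10% of BACH2 peaks, and 8 in the stronger 50%, which holds 50.2% (ties at the middle value count as stronger). The share of members in the strongest 10% was thus close to that of the list. Peaks ranked 8 and 364 stood among mostly below-median ones, and the locus was chosen by its BACH2 values.

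By position, 3 BACH2 members lay 5 to 50 kb upstream, 9 lay 50 to 150 kb upstream and 10 lay farther still. The first 3 were the peaks at 27.2, 31.4 and 46.4 kb, ranked 8440, 4845 and 4879. In the middle part, a run of 5 peaks between 100.9 and 108.8 kb included the narrowest spacing, 0.063 kb between neighbours ranked 5721 and 8863. The unshared peak at 71.0 kb was 6.52-fold enriched and ranked 4536. A gap of 42.8 kb separated the run from the far part, which began at 151.8 kb and ended at 210.7 kb. In the far part, the unshared peaks at 151.8 and 154.7 kb ranked 8983 and 6139, and those at 177.4, 186.4 and 193.7 kb ranked 6718, 5944 and 3905. Neighbouring upstream members were a median of 5.65 kb apart, against 42.8 kb between neighbouring BACH2 peaks across the whole list.

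JunD members were fewer upstream, 8 peaks from 46.2 to 210.7 kb. The strongest lay 170.1 kb upstream, from 18905573 to 18906588, with a score of 328.56 and rank 188 of 5237. A BACH2 peak of rank 4061 ended 0.424 kb short of it, without overlap. The next was at 172.3 kb (score 199.24, rank 544), close to the promoter peak in score, and the one after that was 1508 bp wide and lay at 46.2 kb (score 151.41, rank 919). The other 5 upstream peaks had scores from 56.71 to 87.24. The median score over the 10 members was 82.4, against 81.6 in the whole list, and the stronger 50% of the list, which by definition holds 50%, included 5 of them. The strongest 10% (9.99% of JunD peaks) included 1.

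In rank, the promoter JunD peak came after only those at 170.1 and 172.3 kb. It stood 10.7% of the way down the list, against a median of 54.2% for the 9 JunD members away from the gene. With a single peak at the gene, this compares 1 value with a range from 3.59% to 97.6%. For BACH2 the comparison has no gene side, since all 23 were distal, with ranks from 0.0876% to 98.4%.

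Overlap of the factors occurred only upstream, where 22 of the 23 BACH2 members and 8 of the 10 JunD members lay. JunD peaks overlapped 7 of the 23 BACH2 members, or 30.4% (Wilson 95% interval 15.6 to 50.9, counting error only), while 29.3% of the whole BACH2 list was overlapped. BACH2 peaks overlapped 7 of the 10 JunD members, 70.0% (39.7 to 89.2), and 48.8% of the whole JunD list. Both list shares lie within the members' intervals, which treat neighbouring peaks of 1 library as independent and are no test. By zone, 1 of 3 BACH2 members at 5 to 50 kb was overlapped, 2 of 9 at 50 to 150 kb and 4 of 10 beyond. The 3 JunD members without BACH2 were the promoter peak, the weak peak below the gene and the strong one at 170.1 kb.

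**Figure D2:**
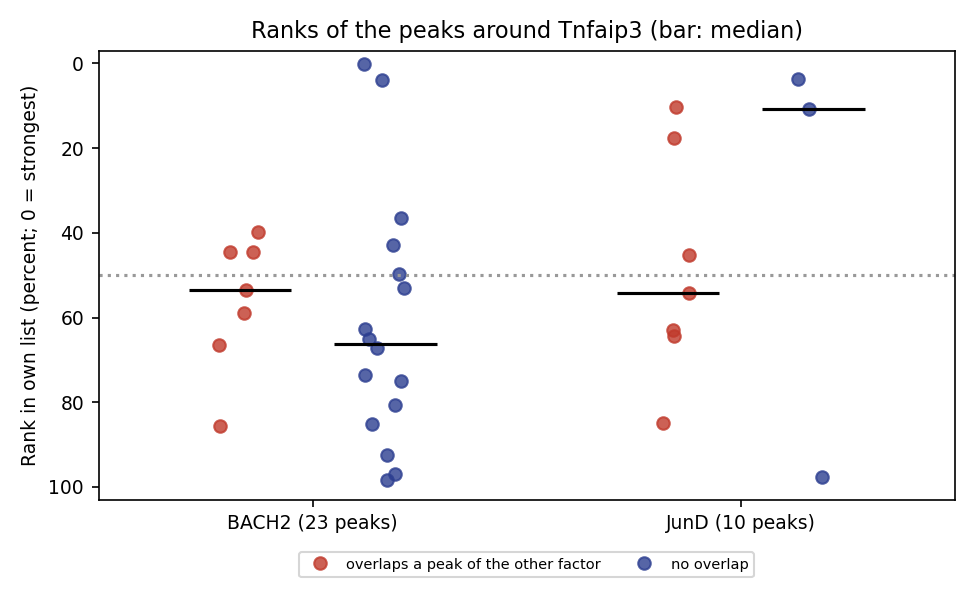
Rank of each member within its own list, in percent with 0 the strongest, for BACH2 (23 peaks) and JunD (10 peaks), split by overlap with the other factor; bars are medians and the dotted line is the middle of each list. The 2 strongest BACH2 members and the strongest JunD member are all in the columns without overlap.

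The strongest peaks of each factor did not coincide at this locus. Both BACH2 members of the strongest 10% were free of JunD, whereas 47.4% of all such BACH2 peaks were overlapped (42.9% in the strongest 20%, which held no further member). The JunD member in the strongest 10% was free of BACH2, whereas 75.7% of all such JunD peaks were overlapped. In the strongest 20% of the JunD list were 4 members, of which 2 were overlapped, against 67.8% of all JunD peaks of that strength. These are 2, 1 and 4 peaks, too few to tell from the list shares. Shared BACH2 members had a median −log10 q of 10.9 (range 5.39 to 15.03), and the 16 unshared ones a median of 8.31 (2.77 to 244.8).

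Where the peaks overlapped, the BACH2 summit lay between 16 and 205 bp from the JunD centre. The median over the 7 pairs was 119 bp, and over all 2677 overlapping pairs of the lists the median was 55 bp (interquartile range 24 to 122 bp). In 6 of the pairs the whole BACH2 peak lay inside the JunD peak, and in the seventh, at 210.7 kb, 99.1% of it did. JunD peaks were also the wider ones over the whole lists (median 553 bp, against 267 bp for BACH2). How many of the 2677 pairs were contained in this way was not counted. The closest pair, at 52.4 kb, joined BACH2 rank 4058 (4.87-fold) with JunD rank 3296 (score 70.1). The pair at 172.4 kb was the strongest for both factors, with a BACH2 fold of 6.56 (rank 3627) and a JunD score of 199.24 (rank 544). At 46.4 kb a wide BACH2 peak of 785 bp, 3.94-fold enriched, sat within the JunD peak of 1508 bp and had its summit 205 bp off the centre. The weakest pair for both, at 88.6 kb, had BACH2 rank 7815 and JunD rank 4452.

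**Figure D3:**
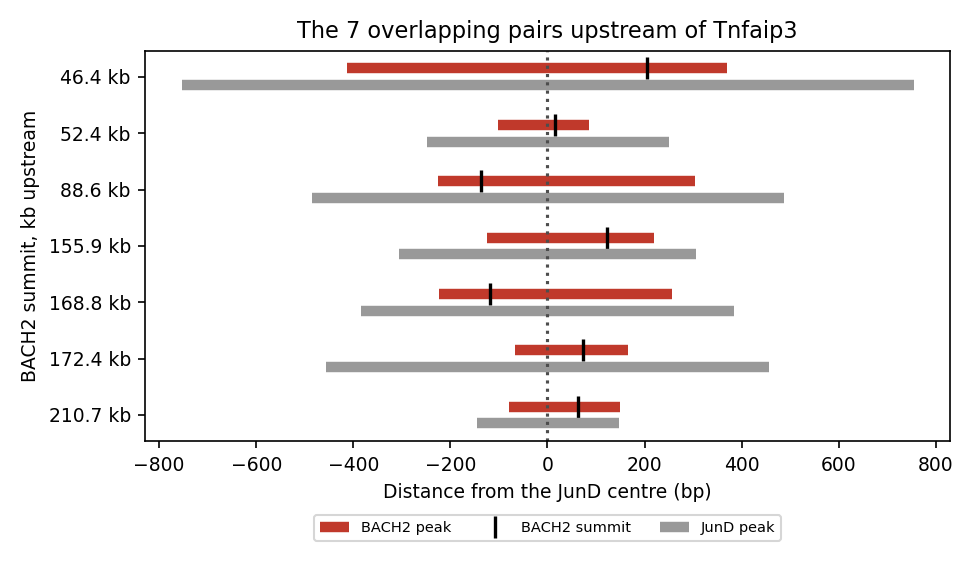
The 7 overlapping pairs, labelled by kb upstream, drawn to scale in bp from the JunD centre (dotted line); upper bars are BACH2 peaks with the summit as a tick, and lower bars are JunD peaks. Every summit lies within 205 bp of the centre.

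JunD peaks lay closest together in one compact group. From 18904507 to 18908766, a span of 4.26 kb, there were 2 BACH2 and 3 JunD peaks. The JunD scores in order of position were 87.24, 328.56 and 199.24, and the outer 2 each contained a BACH2 peak, 5.31-fold and 6.56-fold enriched. The middle and strongest JunD peak contained none.

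The window was crowded with BACH2 peaks by the standard of the genome. It held 23, against a mean of 1.04 and a maximum of 19 in a fixed grid of 8772 windows of 300 kb, so 0% of grid windows reached its count. The window of the rule was placed to cover this locus, which a grid splits at arbitrary points. When stretches of 300 kb were instead started at BACH2 peaks and chosen densest first without overlap, 3 of 2232 others (0.134%) reached 23. They held 32 peaks (chromosome 13, from 23623477), 27 peaks (chromosome 4, from 32214064) and 23 peaks (chromosome 8, from 129109733). Placed in the same way, the stretch at Tnfaip3 itself ran from 18637370 to 18937369 and held 24 BACH2 peaks, the third highest count, which 2 of the others (0.0896%) reached. JunD peaks were less exceptional, since 0.342% of grid windows and 57 of 1762 such stretches started at JunD peaks (3.23%) held at least 10. The neighbouring 300 kb had 3 BACH2 and 0 JunD peaks on the lower side, and 7 and 4 on the upper side.

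**Figure D4:**
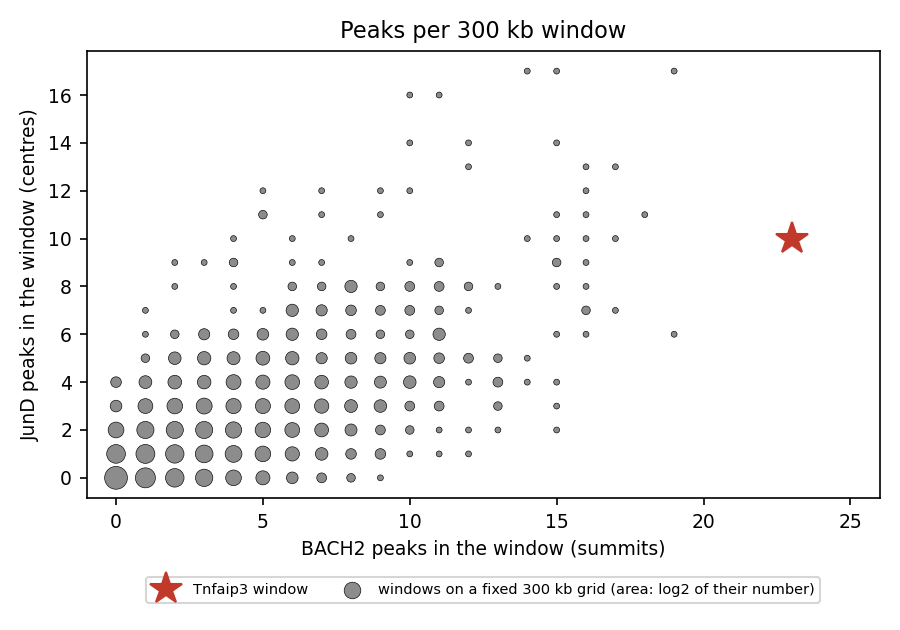
BACH2 peaks (x) and JunD peaks (y) per 300 kb window; the star is the Tnfaip3 window and grey circles are windows on a fixed grid, their area growing with the log2 of their number. The star at 23 and 10 lies to the right of every grid window, while several grid windows hold more JunD peaks.

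Among crowded BACH2 regions, the Tnfaip3 window had a share of overlap below the median, but close to the 29.3% of the whole BACH2 list. It also had a strong leading peak, which follows from the choice of the locus by its BACH2 values. Its strongest peak ranked 8, against a median of 280 for the strongest peaks of the 40 other stretches with 15 or more BACH2 peaks, of which 1 held a peak ranked 8 or better. JunD overlapped 30.4% of the BACH2 peaks around Tnfaip3, against 324 of 713, or 45.4%, in the other stretches. The share by other stretch ran from 13.3% to 85.0%, with a median of 40.0%, and 6 of the 40 lay below the Tnfaip3 value. The interval for the Tnfaip3 share, 15.6 to 50.9%, covers both that median and the 45.4%. In the stretch at Tnfaip3 placed in the same way as the others, 6 of 24 BACH2 peaks were overlapped (25%), and 4 of the 40 lay below that. The median BACH2 rank was 62.6% of the way down the list around Tnfaip3, and between 18.8% and 80.5% in the other stretches. The Tnfaip3 window had 10 JunD peaks, and the others had 2 to 23 with the same median of 10. None of these differences was tested.

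**Figure D5:**
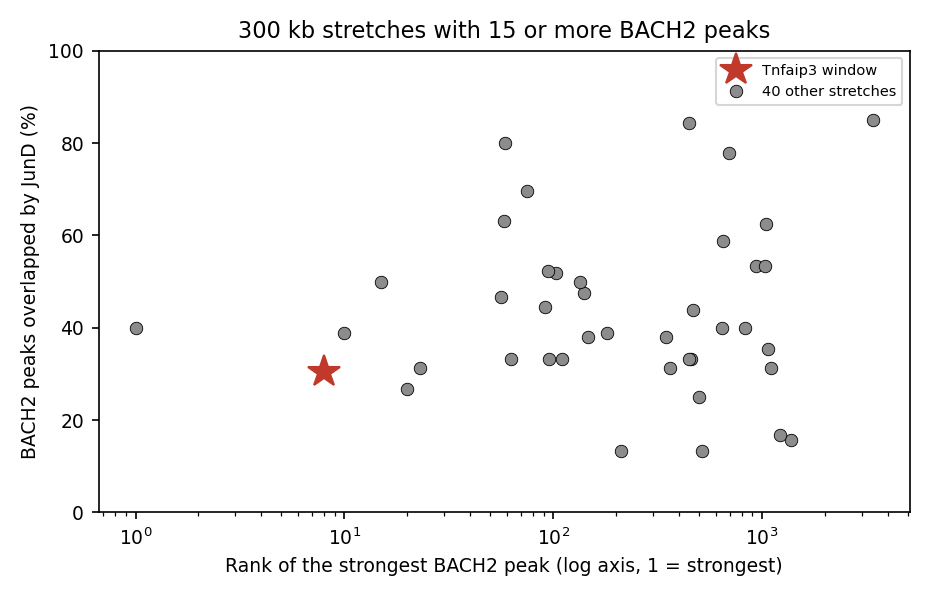
Stretches of 300 kb with 15 or more BACH2 peaks, by rank of their strongest BACH2 peak (x, log axis, 1 strongest) and percent of BACH2 peaks overlapped by JunD (y); the star is the Tnfaip3 window and circles are 40 other stretches. The star at rank 8 and 30.4% has 1 circle to its left, and 6 circles lie below it. The locus was chosen by its BACH2 values, so the star's place on x follows from that choice.

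The strong peak at 78.4 kb stood in a denser neighbourhood than peaks of like strength, which restates the crowding of the window. Within 150 kb on either side it had 22 other BACH2 peaks and 10 JunD peaks, all of them members. The 3 BACH2 peaks ranked just above it, on chromosomes 13 (113077215 to 113077904), 18 (38043071 to 38043623) and 11 (116267542 to 116268271), had 8, 3 and 6 other BACH2 peaks in that range. The 3 just below it, on chromosomes 16 (87713104 to 87713969), 8 (84280424 to 84281050) and 11 (81988325 to 81988820), had 5, 12 and 2. Among the 25 strongest BACH2 peaks the median was 5, and none of the others reached 22. Of those 25, 13 including this one had no overlapping JunD peak.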

How the data were processed

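Per the submitters' processing notes, alignment used Bowtie 0.12.9 and the mm9 (NCBIM37) genome. The peak caller's settings, control library and pooling were not given in the sources used here. The BACH2 list the authors deposited gives each peak a fold over background, a summit, its p-value and q-value as −log10, and an integer score. That score is 10 times the −log10 q, rounded down to a whole number. The JunD list the authors deposited gives each peak a single score whose scale is not stated. Per the labels' protocols 2 JunD antibodies were listed, without saying which gave the library. These are the authors' values and served only to describe and rank peaks within their own list.

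From the lists, peaks in the window were extracted, counted from 1, ranked by −log10 q (BACH2) or score (JunD), and called overlapping at 1 bp or more. The code that counts overlaps was checked on simulated data, which is no test of the overlap itself. Grid windows and stretches were counted by summit or centre. Every member was counted, and most are given singly and the others by range or zone. Outside the window, only its edge neighbours, BACH2 peaks within 3 ranks of the strongest member and the densest stretches were named, the last chosen after their values were seen. Members and lists were chosen with earlier results of these data known. A pathway gene list needed mm9 gene positions and was not used. Software was matplotlib 3.10.9, scipy 1.17.1, pandas 2.3.3, numpy 2.4.6 and Python 3.11.15.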

Additional observations from a re-analysis of the deposited data

How the results depend on the processing

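Of 28 alternatives, 15 left the value within 1.5 times of that reported, and 13 moved it further. With only the stronger 50% of each list, members numbered 8 for BACH2 and 5 for JunD. Overlaps fell to 2 of the 8 and 2 of the 5. The matching shares over the stronger 50% of the whole lists were not computed, so these counts have no background. At this setting, 0.251% (BACH2) and 0.809% (JunD) of grid windows held at least as many peaks. A window ending 100 kb short of its upper edge held 6 JunD peaks. Widening the gene by 5 or 10 kb added the weak JunD peak below it, making 2, and still no BACH2 peak. Ranked by fold, the strongest BACH2 member was number 29. Shifting the grid by 150 kb gave 0.0228% of windows with as many BACH2 peaks, and stretches started at a peak, an alternative added after seeing the data, gave 0.134% for BACH2 and 3.23% for JunD. Each of these settings used other peaks, another window, other gene bounds or another measure for ranking. No paired analysis was possible because there was a single library per factor. Sites under the callers' thresholds are not listed, and the depth behind those thresholds is unknown.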

Other observations

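No JunD peak outside the window lay close to it, though 6497 of 8772 grid windows of 300 kb held no JunD peak at all. The nearest JunD peak below the window, from 17727854 to 17728394, lay 971.6 kb from its edge, and the first above it, from 19217940 to 19218487, lay 217.9 kb away. Both were overlapped by BACH2. For BACH2, the peak nearest below the window (18643389 to 18643641, rank 8761) was 56.4 kb away and the nearest above it (19214234 to 19214679, rank 3842) was 214.2 kb away, neither overlapped by JunD. The peaks just inside the upper edge were the overlapping pair at 210.7 kb, 53.2 kb short of it for both factors, so moving that edge inward by less than this changes no count.

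BACH2 summits were not always central in wide members. In the 785 bp peak at 46.4 kb the summit lay 619 bp from the start, and in the 531 bp peak at 88.6 kb it lay 90 bp from the start, whereas in the 723 bp peak at 78.4 kb it lay at 323 bp.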
